A study of Mus musculus with 109 samples.

Results

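The genes described here are 33 genes of glucose uptake, glycolysis, lactate handling and the entry of pyruvate into mitochondria, chosen by name from the 37315 genes of the count table. They comprise 2 glucose carriers, 6 genes of the upper steps of glycolysis, 3 regulators of phosphofructokinase, 10 genes of the lower steps, 5 genes of lactate handling and 7 genes of mitochondrial pyruvate use. Glycolysis splits glucose into pyruvate, which either enters mitochondria through the pyruvate carrier and pyruvate dehydrogenase or is reduced to lactate and leaves the cell through monocarboxylate carriers. The retina is known for making lactate from glucose even when oxygen is plentiful, mostly in photoreceptors, and Müller glia and the pigment epithelium are thought to exchange lactate with them. All 33 genes were detected in every retina and passed the filter on low counts in every comparison.

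The 109 sequenced libraries each came from 1 whole retina, of 64 mice aged 2 to 4 months at the start (2 to 6 months by the study's methods), which were C57BL/6J (WT) or germline deficient in Sarm1 (Sarm1-/-), the gene of a NAD-cleaving enzyme that drives axon degeneration. Each eye had received the cytokine IL1A, the cytokine TNF, both (IL1A+TNF) or the vehicle PBS by injection into the vitreous, and PBS was mostly given to the fellow eye of a cytokine-injected eye. In batch 1, WT retinas were taken on day 2 after PBS (31 retinas), TNF (8), IL1A (9) or IL1A+TNF (10), on day 14 after PBS (7) or TNF (6), and on day 35 after PBS (6) or TNF (9). Batch 2 held only day 2, with 5 PBS and 6 IL1A+TNF retinas of WT mice and 6 of each of Sarm1-/- mice. Total counts per retina ranged from 30014757 to 79064488 (median 39374202), and levels are given in CPM, the count of a gene relative to the scaled library size.

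Some libraries stood apart. Replicates 4 and 5 of the Sarm1-/- IL1A+TNF retinas had summed levels of 14 markers of retinal ganglion cells (RGCs) of 206.1 and 177.7 CPM, against 482.4 to 1007 CPM in the other 4 and 972.4 to 1075 CPM in Sarm1-/- PBS retinas, and the calls for Sarm1-/- IL1A+TNF retinas are given with and without them. Both also entered the spread of the batch 2 fit for WT retinas and of the comparison of PBS retinas between genotypes. Those 2 results were not refitted without both. IL1A replicate 8 had the lowest summed level of 16 rod markers among the IL1A retinas (31990 CPM against 43000 to 55540 CPM in the other 8). Lens markers summed to over 1000 CPM in 10 retinas spread over 9 groups. Sarm1 itself was 114 ± 9.06 CPM in WT PBS retinas of batch 2 (SD, n = 5) and 43.4 ± 5.81 CPM in Sarm1-/- PBS retinas (SD, n = 6), and no Sarm1-/- retina (highest 52.9 CPM) reached the lowest WT retina (76.2 CPM), so the labels matched the counts although counts of Sarm1 remained.

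The 250 bases before the transcription start were read for 31 of the 33 genes from RefSeq on GRCm38.p6, and Slc2a3 and Bsg had no entry. In 48 such windows of the 31 genes, the core of the hypoxia response element, the letters bound by the hypoxia-inducible factors (HIFs), searched as ACGTG or GCGTG on both strands, was present in 37, or 77.1%, against 38.6% of all 32851 windows in the table. Counted by gene, 27 of 31 (87.1%) had it in at least 1 window against 41.5% of all genes, and Gpi1, Tpi1, Bpgm and Eno2 had none. The palindrome CACGTG, the E-box, which contains ACGTG and was therefore counted in both searches, was present in 12.5% of the windows against 6.02% of all windows. The windows were also richer in G and C, at 60.1% against 53.2%. Such a match is a description of the letters and does not show that a factor bound there. The windows of Hk2 (chr6:82774455-82774704, minus strand, directly before the gene), Pgk1 (chrX:106186850-106187099, plus strand), Pgam1 (chr19:41911621-41911870, plus strand) and Slc16a3 (chr11:120948817-120949066, plus strand, of which 14 bases lie in annotated exons of another transcript of the gene) are shown because these genes of 3 roles were among those with the largest falls after IL1A+TNF. Each of these genes had a single window. Pdk1, Aldoc, Aldoa and Pfkp fell more than Pgk1 and are not shown. Over all their windows they had 1, 2, 2 and 3 cores. Capitals mark the hypoxia response element cores, of which Pgam1 had 3 and the other genes shown 2 each.
Hk2: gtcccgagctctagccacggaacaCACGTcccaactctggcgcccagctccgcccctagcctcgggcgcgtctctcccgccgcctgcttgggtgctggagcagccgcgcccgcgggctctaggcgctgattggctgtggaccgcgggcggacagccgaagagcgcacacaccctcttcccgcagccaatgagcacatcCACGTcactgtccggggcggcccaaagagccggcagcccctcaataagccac
Pgk1: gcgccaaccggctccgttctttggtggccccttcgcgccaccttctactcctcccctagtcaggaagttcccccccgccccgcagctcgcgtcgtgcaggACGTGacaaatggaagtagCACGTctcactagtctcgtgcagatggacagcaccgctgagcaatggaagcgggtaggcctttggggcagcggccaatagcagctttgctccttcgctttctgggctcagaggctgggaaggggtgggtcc
Pgam1: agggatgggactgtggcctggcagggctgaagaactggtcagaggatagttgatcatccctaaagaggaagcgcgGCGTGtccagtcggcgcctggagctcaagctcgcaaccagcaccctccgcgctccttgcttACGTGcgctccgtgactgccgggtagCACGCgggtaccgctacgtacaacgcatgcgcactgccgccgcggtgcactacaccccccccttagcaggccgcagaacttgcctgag
Slc16a3: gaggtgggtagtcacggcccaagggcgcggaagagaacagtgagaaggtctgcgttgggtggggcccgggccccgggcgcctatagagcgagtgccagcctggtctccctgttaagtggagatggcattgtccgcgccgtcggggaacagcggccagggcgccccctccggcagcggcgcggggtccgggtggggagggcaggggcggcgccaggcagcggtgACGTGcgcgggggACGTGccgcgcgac

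In the 31 PBS retinas of day 2, the levels per kilobase of exon spanned from 734 ± 70.1 CPM per kb for Aldoa, the main aldolase, to 0.262 ± 0.124 CPM per kb for Pdk4, a pyruvate dehydrogenase kinase (SD, n = 31). Gapdh (584 ± 56.5 CPM per kb), the pyruvate kinase gene Pkm (480 ± 44.6) and the enolase gene Eno1 (352 ± 34.0) followed, and these neighbours differed by more than their SDs. Many neighbours lower in the order did not, among them Bsg (289 ± 25.4) and Ldha (281 ± 25.4), and Aldoc (128 ± 11.7) and Gpi1 (126.5 ± 6.89). Where a step has several isoenzymes, Aldoa exceeded Aldoc, Eno1 exceeded the neuronal enolase Eno2 (113 ± 6.87), and Ldha exceeded Ldhb (76.5 ± 8.50) per kb in the means. The hexokinases Hk1 (151 ± 16.9) and Hk2 (112 ± 15.6) were closer, and the 3 phosphofructokinase genes lay between 44.8 (Pfkm) and 65.7 CPM per kb (Pfkl). The length counts all annotated exons of a gene together, and the SDs do not cover that choice. Before division by length, Gapdh (2412 CPM) was above Aldoa (2137 CPM). Likewise, Pfkp (719 CPM) was above Pfkl (439 CPM) and Pfkm (149.5 CPM). Of the lactate carriers, Slc16a1 (MCT1, 55.9 ± 6.07 CPM per kb) was higher than Slc16a3 (MCT4, 11.6 ± 1.74). The coefficient of variation over the PBS retinas was 5.44% to 15% for 32 of the genes and 47.2% for Pdk4, whose level was 0.920 ± 0.435 CPM before division by length.

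**Figure D1:**
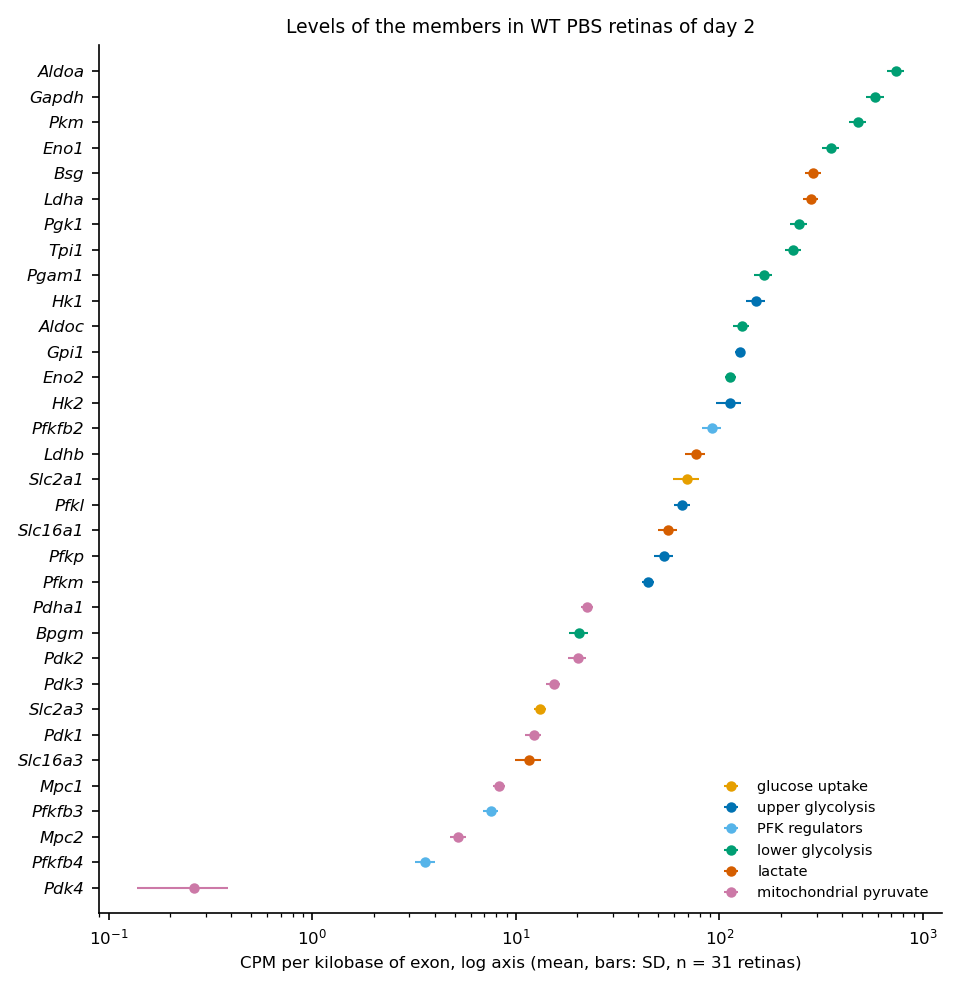
Level of each of the 33 genes in the 31 PBS retinas of day 2, batch 1, in CPM per kilobase of exon on a log axis. Points are means and bars the SD, coloured by role, and the means run from 734 for Aldoa down to 0.262 for Pdk4.

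On day 2 after IL1A+TNF, most of these genes were lower than in PBS retinas of the same batch. Limma called 25 of the 33 lower and 3 higher at an adjusted p under 0.05, and the median log2 fold change was −0.37. Of all 19548 genes tested, 50.4% were called, 24.9% higher and 25.5% lower, with a median log2 fold change of −0.02. All of the 25 lower genes except Slc2a1, Slc2a3, Eno1 and Pdk2 lay below the PBS mean in 10 of 10 IL1A+TNF retinas. Summed over the 33 genes, the level ranged from 16160 to 21650 CPM in PBS retinas (median 18670) and from 11910 to 16850 CPM in IL1A+TNF retinas (median 14170). The p-values throughout measure the spread between retinas. Eyes of the same mouse were linked in every main fit except that of PBS retinas over days. In whole tissue, fewer cells of a type and less RNA per cell cannot be told apart.

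Both glucose carriers were lower after IL1A+TNF. Slc2a1 (GLUT1), the carrier of glia, endothelium and photoreceptors, ranged from 191 to 343 CPM in PBS retinas (median 236) and from 151 to 272 CPM in IL1A+TNF retinas (median 184), with 6 of 10 retinas below every PBS retina (log2 fold change −0.29, SE 0.078, adjusted p = 0.00166). Slc2a3 (GLUT3), the neuronal carrier, moved less, from a median of 97.1 CPM (80.3 to 112) to 88.1 CPM (75.5 to 99.5), with overlapping groups (−0.11, SE 0.039, adjusted p = 0.0170). The hexokinases, which trap glucose in the cell as glucose 6-phosphate, moved in opposite directions. Hk2, at chr6:82725025-82774454 and known for binding to mitochondria in glycolytic cells, was 451, 671 and 816 CPM (lowest, median and highest) in PBS retinas and 264, 388 and 487.5 CPM in IL1A+TNF retinas. The fitted level of the latter was 0.579 of the PBS level, and 7 of 10 retinas lay below every PBS retina (log2 fold change −0.79, SE 0.081, adjusted p = 2.29e-12). Hk1, the hexokinase of most neurons, was 944, 1313 and 1627 CPM in PBS retinas and 1319, 1467 and 1785 CPM in IL1A+TNF retinas. It was above the PBS mean in 10 of 10 retinas although the groups overlapped (0.23, SE 0.052, adjusted p = 0.000118). The glucose phosphate isomerase gene Gpi1 fell from a median of 815 CPM (707 to 904) to 577 CPM (459 to 713), with 9 of 10 retinas below every PBS retina (−0.54, SE 0.049, adjusted p = 3.33e-14).

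Phosphofructokinase carries out the committed step of glycolysis, and its 3 genes were all lower. Pfkp, the platelet type, was 558, 714 and 889 CPM in PBS retinas and 384, 454 and 545 CPM in IL1A+TNF retinas, so that the groups did not overlap (−0.62, SE 0.059, adjusted p = 2.87e-13). Pfkl, the liver type, was 384, 432 and 535 CPM against 225, 313 and 377 CPM, also without overlap (−0.54, SE 0.066, adjusted p = 4.60e-10). Pfkm, the muscle type, changed less (−0.22, SE 0.041, adjusted p = 5.57e-06). Pfkp, Pfkl and Aldoc were the 3 of the 33 genes whose 10 IL1A+TNF retinas all lay below all 31 PBS retinas, against 0.389% of all genes. Of the enzymes that set the level of fructose 2,6-bisphosphate, an activator of phosphofructokinase, Pfkfb2 fell from a median of 674 CPM (518 to 780) to 421 CPM (388 to 594), and 8 of 10 retinas lay below every PBS retina (−0.58, SE 0.058, adjusted p = 1.08e-12). Pfkfb3, the isoform with the strongest kinase activity, was lower too (−0.31, SE 0.052, adjusted p = 1.18e-06). Pfkfb4, in contrast, was 14.4, 17.5 and 22.2 CPM in PBS retinas and 18.7, 22.8 and 27.9 CPM after IL1A+TNF, above the PBS mean in 10 of 10 retinas and above every PBS retina in 5 (0.39, SE 0.052, adjusted p = 4.72e-09).

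In the lower steps, 9 of 10 genes were called lower, with a median log2 fold change of −0.50. Aldoc, the aldolase of astrocytes and some neurons, was 349, 411 and 492 CPM in PBS retinas and 149, 271 and 348.4 CPM in IL1A+TNF retinas, and the ranges met without overlapping (−0.72, SE 0.079, adjusted p = 2.22e-11). Aldoa showed a similar difference from a higher level, with medians of 2114 and 1413 CPM (−0.64, SE 0.073, adjusted p = 4.96e-11). The phosphoglycerate mutase gene Pgam1 was 268, 322.5 and 407.5 CPM against 157, 202 and 282 CPM, with 9 of 10 retinas below every PBS retina (−0.67, SE 0.074, adjusted p = 2.37e-11). The phosphoglycerate kinase gene Pgk1, which catalyses the first ATP-yielding step, had medians of 553 and 360 CPM (−0.60, SE 0.067, adjusted p = 3.43e-11). Pkm, which catalyses the last step, was 2011, 2393 and 3016 CPM against 1356, 1640 and 2060 CPM, so that only the highest IL1A+TNF retina entered the PBS range (−0.55, SE 0.062, adjusted p = 7.43e-11). The counts do not separate its M1 and M2 isoforms. Tpi1 (−0.45), Gapdh (−0.41), Eno1 (−0.37) and Eno2 (−0.14) were also lower. Bpgm, which makes 2,3-bisphosphoglycerate and is best known from red cells, was the exception, with medians of 71.8 and 75.9 CPM and an adjusted p of 0.200 (0.08). Pgk1, Pgam1, Gapdh, Eno1, Ldhb and Mpc1 have near-identical copies elsewhere in the genome, and reads from such stretches may have been lost or assigned to a copy.

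All 5 lactate genes were lower after IL1A+TNF. Slc16a3 (MCT4), the exporter of strongly glycolytic cells, at chr11:120948480-120960868, was 46.1, 61.6 and 86.1 CPM in PBS retinas and 24.7, 35.4 and 47.5 CPM in IL1A+TNF retinas. Its level was 0.559 of that in PBS retinas, the lowest ratio among the 33 genes, and 9 of 10 retinas lay below every PBS retina (−0.84, SE 0.096, adjusted p = 8.12e-11). Slc16a1 (MCT1), a carrier of lactate in either direction, was 196, 248 and 310 CPM against 130, 167 and 221 CPM (−0.56, SE 0.062, adjusted p = 1.95e-11). Bsg, which encodes basigin, the partner that both carriers need to reach the cell surface, had medians of 522 and 387 CPM (−0.39, SE 0.051, adjusted p = 2.56e-09). Of the subunits of lactate dehydrogenase, Ldha, known for turning pyruvate into lactate, had medians of 917 and 740 CPM (−0.31, SE 0.055, adjusted p = 3.28e-06), and Ldhb, whose tetramer favours the reverse reaction, had medians of 120.5 and 92.7 CPM (−0.28, SE 0.056, adjusted p = 2.49e-05). For both subunits 10 of 10 retinas lay below the PBS mean, and the groups overlapped.

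The genes of mitochondrial pyruvate use moved less, with a median log2 fold change of −0.07 over 7 genes, 2 called lower and 1 higher. Pdk1, a kinase that switches pyruvate dehydrogenase off, was the exception, at 79.5, 96.3 and 112 CPM in PBS retinas and 29.5, 59.5 and 81.1 CPM in IL1A+TNF retinas, with 9 of 10 retinas below every PBS retina (−0.74, SE 0.080, adjusted p = 1.02e-11). Pdk3, a kinase of the same family, was higher, with medians of 38.8 and 43.8 CPM and 10 of 10 retinas above the PBS mean (0.19, SE 0.037, adjusted p = 1.34e-05). Pdk2 was slightly lower (−0.17, SE 0.056, adjusted p = 0.00998). Limma called neither subunit of the mitochondrial pyruvate carrier, Mpc1 (0.05, adjusted p = 0.186) and Mpc2 (−0.09, adjusted p = 0.0607), nor Pdha1, the catalytic subunit of pyruvate dehydrogenase (−0.07, adjusted p = 0.101). Pdk4 was near 1 CPM in both groups (0.27, adjusted p = 0.307).

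**Figure D2:**
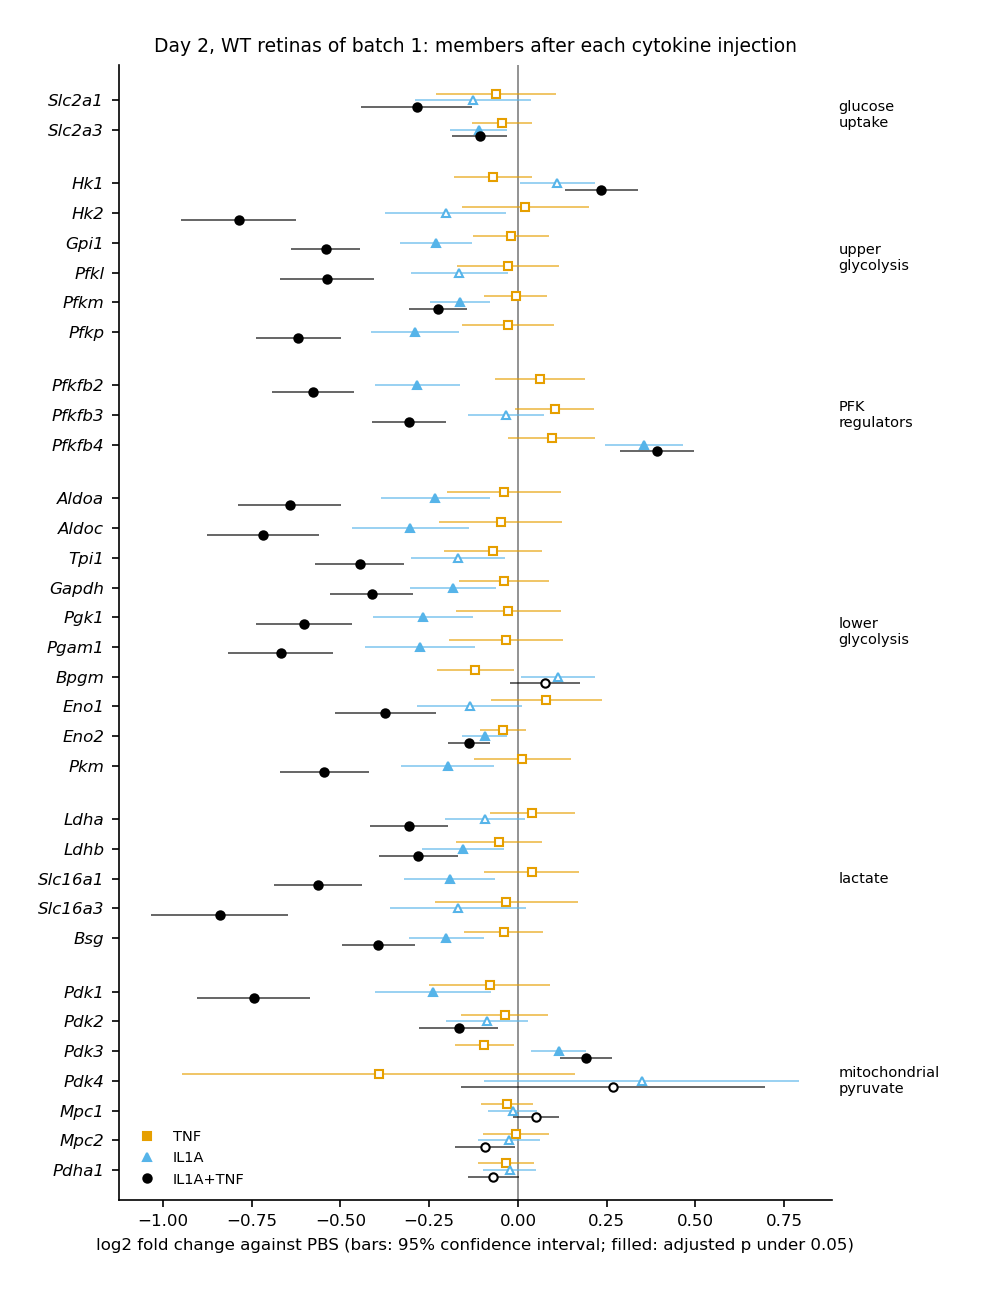
Log2 fold change against PBS on day 2, batch 1, for the 33 genes grouped by role, after TNF, IL1A and IL1A+TNF. Bars are 95% confidence intervals and filled symbols have an adjusted p under 0.05, which holds for 0, 18 and 28 genes.

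Ratios between isoenzymes within a retina do not depend on the scaling of the libraries, and they were added after the data were seen, as a description. Per kilobase, the ratio of Hk2 to Hk1 was 0.523 to 0.991 in PBS retinas (median 0.740) and 0.258 to 0.490 in IL1A+TNF retinas (median 0.365), without overlap. The ratio of Pdk1 to Pdk3 was 0.574 to 0.966 (median 0.784) against 0.226 to 0.655 (median 0.411). The ratio of Ldha to Ldhb stayed in the same range, at 3.16 to 4.45 (median 3.66) against 3.46 to 3.85 (median 3.64). The ratio of Aldoa to Aldoc had similar medians, at 5.05 to 6.86 (median 5.74) against 5.09 to 7.945 (median 5.77), with a wider range after IL1A+TNF. The lactate carriers shifted a little, with a ratio of Slc16a3 to Slc16a1 of 0.162 to 0.277 (median 0.210) in PBS retinas and 0.132 to 0.204 (median 0.169) in IL1A+TNF retinas.

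**Figure D3:**
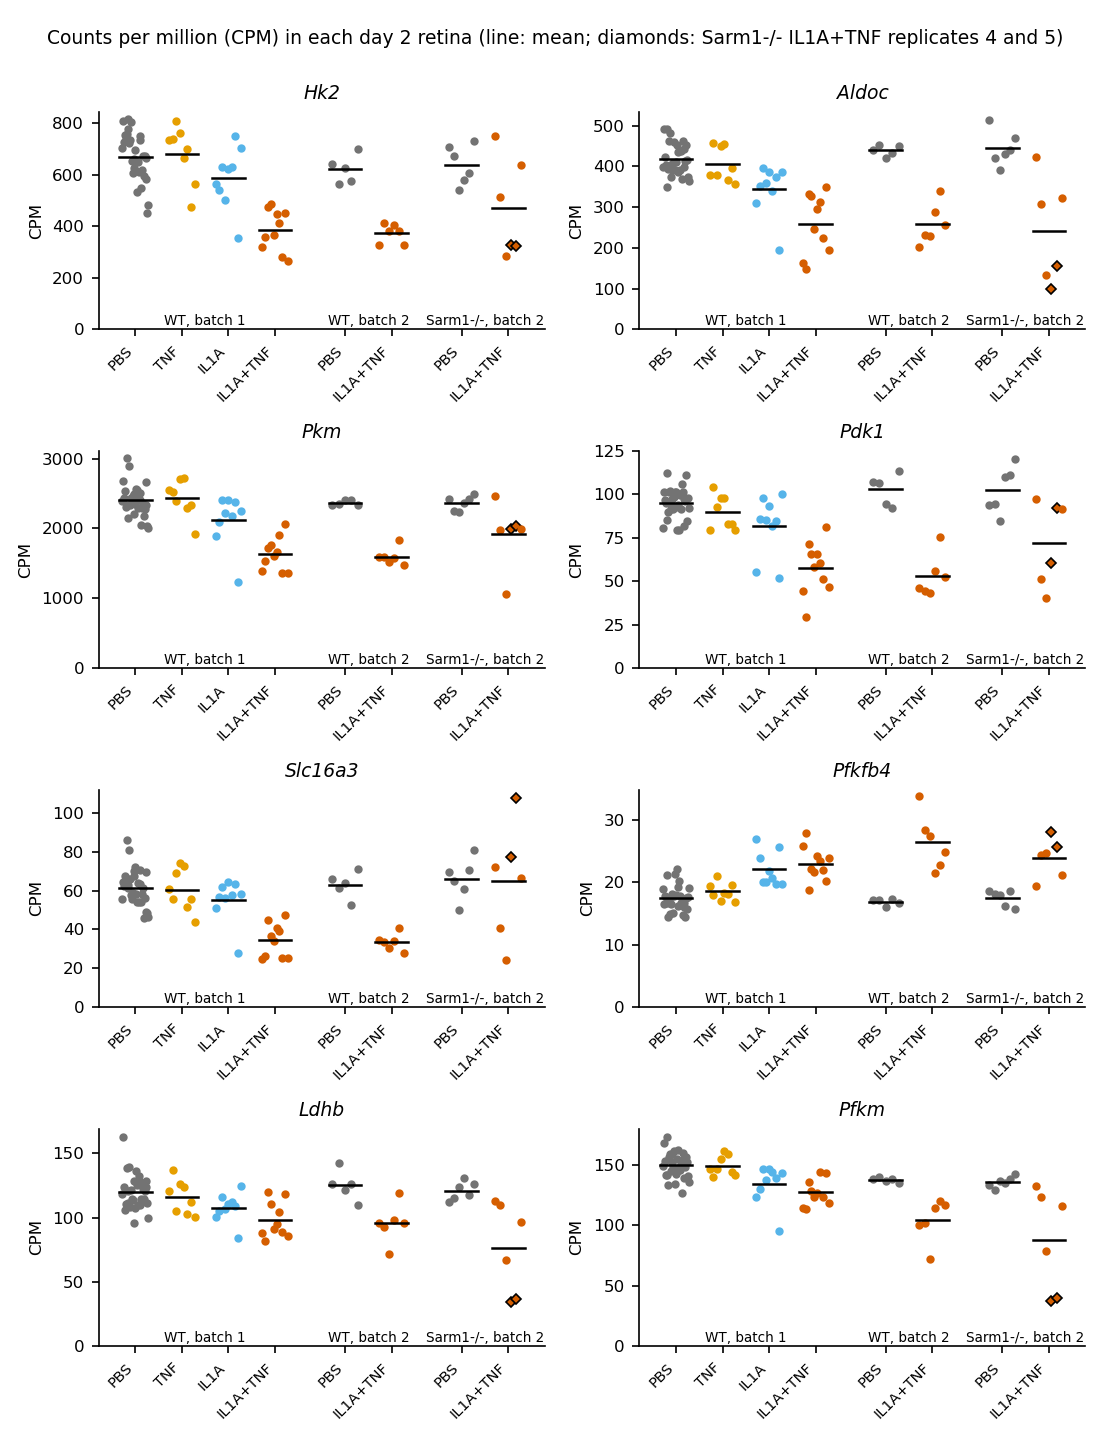
Level in CPM of Hk2, Aldoc, Pkm, Pdk1, Slc16a3, Pfkfb4, Ldhb and Pfkm in each day 2 retina by treatment, batch and genotype, with points for retinas, lines for means and diamonds for Sarm1-/- IL1A+TNF replicates 4 and 5. In WT retinas of batch 1 the IL1A+TNF points of Aldoc (149 to 348.4 CPM) lie below all PBS points (from 349 CPM), and both diamonds are the lowest points of Pfkm (37.0 and 39.8 CPM).

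Markers of several cell types changed as well, in both directions. Of 16 rod markers, 15 were lower in IL1A+TNF retinas and none was higher, and their summed level ranged from 45860 to 69280 CPM in PBS retinas and from 30350 to 52880 CPM after IL1A+TNF. All 11 cone markers were lower (1377 to 1911 CPM against 644.7 to 1526 CPM), as were 8 of 10 markers of the pigment epithelium (484.2 to 1147 CPM against 316.1 to 640.5 CPM) and 13 of 14 RGC markers (871.6 to 1195 CPM against 771.1 to 976.9 CPM). Of 13 Müller glia markers, 6 were higher and 4 lower (2893 to 5095 CPM against 2590 to 4313 CPM). Rlbp1 was in both the Müller glia and the pigment epithelium lists, so neither sum stands for a single cell type. The median log2 fold change over the pigment epithelium list was −1.17, and its sum weighs the abundant genes most. Markers of monocytes and macrophages were higher (10 of 11, 111.9 to 330.7 CPM against 494.4 to 1300 CPM). So were 8 of 11 neutrophil markers tested, with 0 lower. Of 10 endothelial markers, 7 were higher and 1 lower. Among 11 microglia markers, 7 were higher and 3 lower, and among 6 astrocyte markers, 2 were higher and 4 lower. No marker in these lists was at 0 in every retina of either group. The part of these shifts in the levels of the 33 genes was not tested.

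Neighbouring pathways were described by 3 further lists. Of 55 other genes of sugar, glycogen and pyruvate metabolism, 13 were higher and 16 lower after IL1A+TNF (52.7%, near the 50.4% of all genes called), with a median log2 fold change of −0.04. The largest changes among them were in Txnip, an inhibitor of glucose uptake (2.11), Hk3, the hexokinase of myeloid cells (1.98), Gpd1, a glycerol phosphate dehydrogenase (1.58), Pygl, the liver type of glycogen phosphorylase (0.91), Slc16a8, the lactate carrier MCT3 of the pigment epithelium (−0.76) and Arrdc4, a relative of Txnip (0.71). In the pentose phosphate pathway, 4 of 14 genes were higher and 1 lower (35.7%, below the share of all genes), with H6pd (0.63) and Pgd (0.46), which both encode dehydrogenases of its oxidative branch, rising most. Of 24 genes of the HIF response, 15 were lower and 2 higher (70.8%), with a median of −0.26, and those lower included Bnip3 (−0.88), a mitophagy receptor, and Vegfa (−0.57), the vascular growth factor.

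After IL1A alone, the changes were smaller and mostly in the same direction. Limma called 16 of the 33 genes lower and 2 higher, and the median log2 fold change was −0.16, where 21.4% of all genes were called, 12% higher and 9.45% lower, with a median of −0.01. Pfkp was 416, 579 and 709 CPM after IL1A (−0.29, SE 0.062, adjusted p = 0.000273), and Pfkfb2 was 466, 555.5 and 592 CPM (−0.28, SE 0.060, adjusted p = 0.000264). Both lay below the PBS mean in 9 of 9 retinas, and both overlapped the PBS range. Aldoc (−0.30, adjusted p = 0.00465), Pgam1 (−0.28), Pgk1 (−0.27), Pdk1 (−0.24), Gpi1 (−0.23), Bsg (−0.20) and Slc16a1 (−0.19) were lower as well. Pfkfb4 rose to 19.7, 20.8 and 26.99 CPM, above the PBS mean in 9 of 9 retinas (0.36, SE 0.055, adjusted p = 8.88e-07), and Pdk3 rose by 0.12 on the log2 scale. Hk2 (−0.20, adjusted p = 0.0781) and Slc16a3 (−0.17, adjusted p = 0.230) were not called. Leaving out IL1A replicate 8 took the count from 18 to 8, leaving out IL1A replicate 1 took it to 11, and with mouse as a fixed factor in place of a random block it was 2, when 11.1% of all genes were called. Of the rod markers 13 of 16 were lower after IL1A (31990 to 55540 CPM), and 9 of 11 monocyte markers were higher (263.1 to 697.8 CPM).

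What TNF added to IL1A was tested by setting both groups against each other. Limma called 18 genes lower and none higher (median −0.23), against 10.1% of all genes, 5.39% higher and 4.68% lower. Slc16a3 (−0.67, SE 0.121, adjusted p = 0.000175) and Hk2 (−0.58, SE 0.103, adjusted p = 0.000151) differed most. For Hk2 the IL1A retinas were 354, 621 and 751 CPM, and the IL1A+TNF retinas at 264 to 487.5 CPM overlapped them only through the lowest IL1A retina. Pdk1 (−0.51), Aldoc (−0.42), Aldoa (−0.41) and Pgam1 (−0.39) followed. Tested as an interaction, the change after IL1A+TNF fell below the sum of the changes after each cytokine alone, on the log2 scale, for 7 genes and exceeded it for none, where 3.6% of all genes were called. They were Slc16a3 (−0.64, SE 0.157, adjusted p = 0.0143), Hk2 (−0.60, SE 0.136, adjusted p = 0.00699), Slc16a1 (−0.41), Pfkfb3 (−0.38), Pfkfb2 (−0.36), Pkm (−0.36) and Gpi1 (−0.29). With mouse as a fixed factor both counts were 0, when 0.00512% and 0% of all genes were called. No mouse had an IL1A eye together with an IL1A+TNF or TNF eye. That fit therefore compared IL1A+TNF with IL1A only through PBS fellow eyes. The interaction count was 4 without TNF replicate 3, TNF replicate 6, IL1A+TNF replicate 2, IL1A replicate 3 or IL1A replicate 5, but 18 without IL1A replicate 8 and 16 without IL1A+TNF replicate 9.

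After TNF alone, no gene of the 33 was called on day 2, where 0.655% of all genes were called, and the same held on days 14 and 35, where 0% were, and edgeR and DESeq2 called none of the 33 on any of these days either. On day 2, Pdk3 (−0.10, SE 0.042) and Bpgm (−0.12, SE 0.055) had an unadjusted p under 0.05. Leaving out Pdk4, which was at 0.260 to 1.99 CPM after TNF, the log2 fold changes of day 2 ran from −0.12 to 0.10, and the 95% confidence intervals reached from −0.25 to 0.24. Hk2 was 476, 716 and 806 CPM and Slc16a3 44.03, 58.3 and 74.1 CPM after TNF, both within or just below the range of the PBS retinas. No gene of the 33 had an unadjusted p under 0.05 on day 14 or day 35, against 838 (4.65%) and 871 (4.89%) genes of all tested by limma. The intervals without Pdk4 reached from −0.26 to 0.20 on day 14 and from −0.20 to 0.15 on day 35. On day 2 the monocyte markers reached 95.39 to 608.9 CPM after TNF, while the rod markers (50730 to 61360 CPM) lay within the PBS range.

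PBS retinas themselves differed between days. On day 14, limma called 15 of the 33 genes lower and 1 higher than on day 2 (median −0.14), against 19.2% of all genes, 8.68% higher and 10.5% lower, with a median of 0.01. On day 35 it called 16 lower and 4 higher (median −0.13), against 32.8% of all genes, 15.4% higher and 17.4% lower. These comparisons share the day 2 retinas. The lactate carriers moved in opposite directions. Slc16a3 was 46.1, 61.6 and 86.1 CPM on day 2, 32.6, 38.0 and 44.1 CPM on day 14 (−0.68, SE 0.086, adjusted p = 2.71e-07) and 35.1, 36.6 and 49.3 CPM on day 35 (−0.64, SE 0.091, adjusted p = 6.47e-07). Slc16a1 was 196, 248 and 310 CPM on day 2, 272, 298 and 316 CPM on day 14 (0.27, SE 0.056, adjusted p = 0.000472) and 330, 349.5 and 359 CPM on day 35 (0.49, SE 0.060, adjusted p = 3.58e-08). No day 14 retina reached the lowest day 2 level of Slc16a3, and every day 35 retina was above the highest day 2 level of Slc16a1. Per kilobase, the ratio of Slc16a3 to Slc16a1 was 0.162 to 0.277 on day 2, 0.0959 to 0.128 on day 14 and 0.0824 to 0.114 on day 35, so that the day 2 values lay above all later ones.

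Pdk1 was lower on both later days, with medians of 96.3, 70.3 and 68.2 CPM and a highest day 35 retina (73.6 CPM) below the lowest of day 2 (79.5 CPM; −0.48, SE 0.055, adjusted p = 7.85e-09). Hk1, which had risen after IL1A+TNF, was lower on day 14 (880 to 1040 CPM; −0.42, adjusted p = 8.25e-07) and on day 35 (908 to 1154 CPM; −0.40, adjusted p = 1.77e-06). Hk2 was lower on day 14 (457 to 548 CPM; −0.40, adjusted p = 7.97e-05) but not called on day 35 (575 to 704 CPM). Pfkfb2 was higher on day 35, at 798, 869 and 1025 CPM, all above the highest day 2 retina (0.40, SE 0.065, adjusted p = 5.39e-06). Pfkl, Pfkp, Tpi1, Aldoa, Pgk1, Pgam1, Bpgm, Gpi1 and Pdk3 were lower on both later days by 0.13 to 0.38 on the log2 scale, and the upper steps of glycolysis had medians of −0.28 on day 14 and −0.18 on day 35. In the same PBS retinas, 12 of 16 rod markers were higher on day 14 and 15 of 16 on day 35 (66890 to 77150 CPM against 45860 to 69280 CPM on day 2), while all 11 microglia markers were lower on day 35 (45.69 to 57.81 CPM against 90.03 to 158.5 CPM). The part of these shifts was not tested, and time after injection cannot be told apart from the age of the mice or from the treatment of the fellow eye, which was mostly TNF on the later days.

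**Figure D4:**
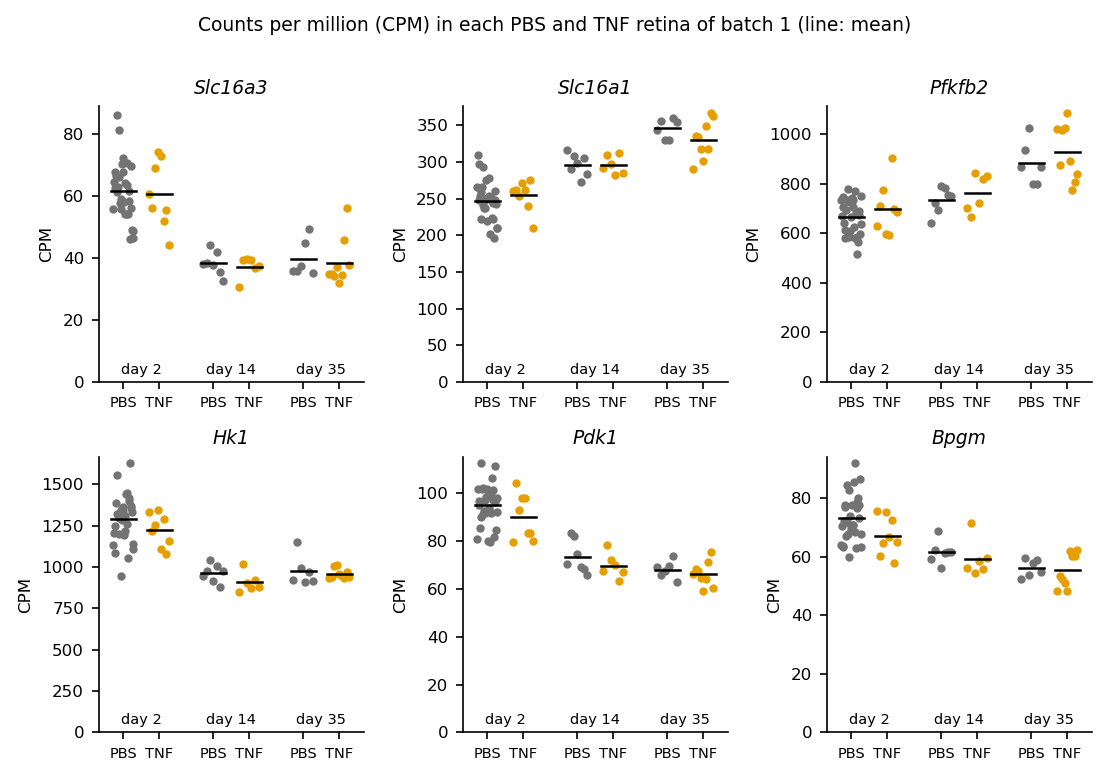
Level in CPM of Slc16a3, Slc16a1, Pfkfb2, Hk1, Pdk1 and Bpgm in WT retinas of batch 1 on days 2, 14 and 35 after PBS or TNF. Points are retinas and lines are means, and the PBS medians fall from 61.6 to 36.6 CPM for Slc16a3 and rise from 248 to 349.5 CPM for Slc16a1 between days 2 and 35.

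Batch 2 held an independent set of WT mice and shares no retina with batch 1. The fit took its spread from all 23 retinas of batch 2, those of Sarm1-/- mice included. There, limma called 17 of the 33 genes lower and 1 higher after IL1A+TNF (median −0.43), against 20.9% of all genes, 13.3% higher and 7.55% lower, with a median of −0.02. The sign was the same as in batch 1 for 32 of 33 genes, and all 18 genes called in batch 2 had been called in the same direction in batch 1. The 10 genes called in batch 1 only were, in batch 2, Slc2a1 (−0.30, SE 0.212), Slc2a3 (−0.31, SE 0.202), Hk1 (0.31, SE 0.112), Pfkm (−0.39, SE 0.250), Pfkfb3 (−0.39, SE 0.157), Eno2 (−0.18, SE 0.098), Ldha (−0.32, SE 0.122), Ldhb (−0.38, SE 0.239), Pdk2 (−0.06, SE 0.123) and Pdk3 (0.20, SE 0.117), with adjusted p-values from 0.0540 for Hk1 to 0.761 for Pdk2, and whether they differed between batches was not tested. Pdk1 was 107, 107, 94.7, 92.4 and 113 CPM in the 5 PBS retinas and 46.4, 44.2, 43.5, 56.03, 75.3 and 52.6 CPM in the 6 IL1A+TNF retinas (−0.97, SE 0.202, adjusted p = 0.00194). Slc16a3 was 66.2, 61.3, 64.0, 52.4 and 71.2 CPM in PBS retinas and 34.8, 33.7, 30.6, 34.2, 40.9 and 27.7 CPM in IL1A+TNF retinas (−0.90, SE 0.270, adjusted p = 0.0223). Pfkfb4 was 16.1 to 17.3 CPM in PBS retinas and 33.9, 28.4, 27.5, 21.6, 22.8 and 24.9 CPM in IL1A+TNF retinas (0.62, SE 0.103, adjusted p = 0.000256). For these genes the groups did not overlap. Over the 33 genes, 18 had all IL1A+TNF retinas below all PBS retinas, against 10.2% of all genes. Among these 18 were Pfkm and Pfkfb3, which limma did not call in this batch. The ratio of Hk2 to Hk1 per kilobase was 0.695 to 0.750 in PBS retinas and 0.291 to 0.420 in IL1A+TNF retinas, and the log2 fold changes of the batches had a Pearson's r of 0.969 and a Spearman's rho of 0.972 across the 33 genes, which are not independent of each other. Rod markers moved in the same way in this batch, with 11 of 16 lower (50190 to 65020 CPM against 32900 to 45840 CPM).

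**Figure D5:**
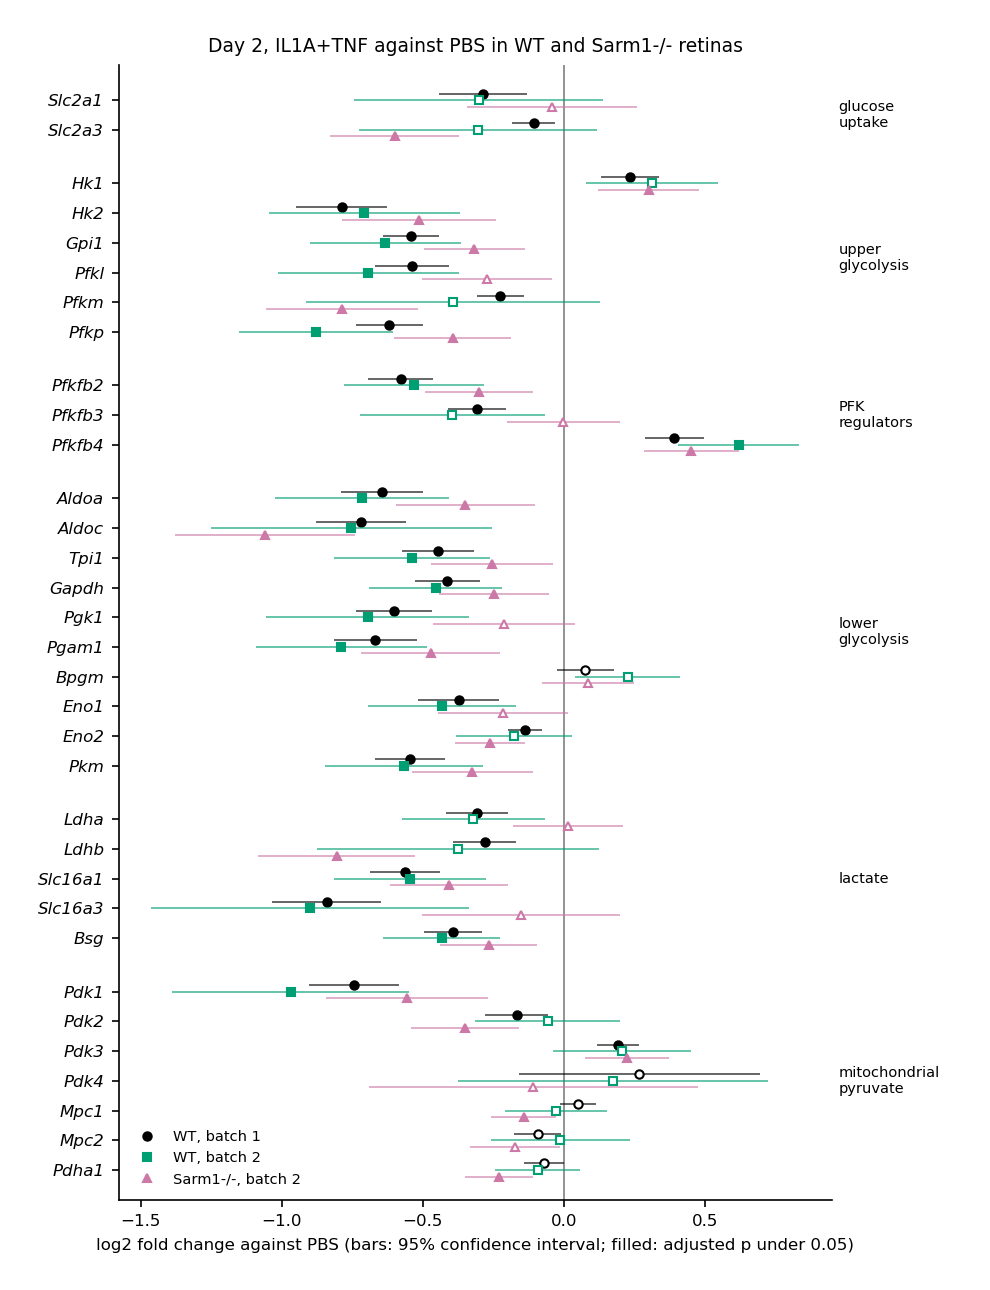
Log2 fold change of IL1A+TNF against PBS on day 2 for the 33 genes in WT retinas of batch 1, WT retinas of batch 2 and Sarm1-/- retinas. Bars are 95% confidence intervals and filled symbols have an adjusted p under 0.05 (28, 18 and 23 genes); Slc16a3, for example, is at −0.84, −0.90 and −0.15.

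Loss of Sarm1 alone made no difference to these genes that the test called. In PBS retinas, none of the 33 was called between Sarm1-/- and WT, where 0.0397% of all genes were, none had an unadjusted p under 0.05, and edgeR and DESeq2 called none. The log2 fold changes ran from −0.12 to 0.15, and the 95% confidence intervals without Pdk4 reached from −0.34 to 0.42. Slc16a3, for example, was 69.7, 65.0, 50.2, 60.9, 70.5 and 80.9 CPM in the Sarm1-/- PBS retinas, which covers the WT range.

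After IL1A+TNF, Sarm1-/- retinas also had lower levels of most of these genes than Sarm1-/- PBS retinas. Limma called 20 lower and 3 higher (median −0.26), against 43.5% of all genes, 21.3% higher and 22.2% lower. Without replicates 4 and 5 the count was 17, with 16 lower and 1 higher and 14 of the 23 kept, against 13% of all genes (median −0.37), and all 17 had been called in the same direction in WT batch 1. Aldoc was 423, 309, 134, 99.3, 156 and 324 CPM in replicates 1 to 6, against 392 to 514 CPM in Sarm1-/- PBS retinas (−1.06, SE 0.160, adjusted p = 4.31e-07, and −0.75 without replicates 4 and 5). Hk2 was 750, 513, 283, 327, 323 and 636 CPM against 542 to 731 CPM (−0.51, adjusted p = 0.00153), and it was no longer called without replicates 4 and 5 (−0.36, adjusted p = 0.0967). Replicate 1 was within or above the PBS range for both genes, and replicates 3, 4 and 5 were the lowest. Pfkfb4 was higher with (0.45) and without (0.37) these replicates. Mpc1 (−0.14, SE 0.058, adjusted p = 0.0380) and Pdha1 (−0.23, SE 0.060, adjusted p = 0.00123) were called in Sarm1-/- but not in WT retinas of batch 1, and neither was called without replicates 4 and 5. The 7 genes called in WT retinas of batch 1 but not in Sarm1-/- retinas were Slc2a1 (−0.04, SE 0.152), Pfkl (−0.27, SE 0.116), Pfkfb3 (−0.0023, SE 0.1004), Pgk1 (−0.21, SE 0.127), Eno1 (−0.22, SE 0.116), Ldha (0.02, SE 0.098) and Slc16a3 (−0.15, SE 0.176), with adjusted p-values from 0.0506 for Pfkl to 0.988 for Pfkfb3. Without replicates 4 and 5, Pfkl (−0.39), Pgk1 (−0.48) and Slc16a3 (−0.53) were called lower. All 14 RGC markers were lower in Sarm1-/- IL1A+TNF retinas (177.7 to 1007 CPM against 972.4 to 1075 CPM), as were 12 of 16 rod markers (29030 to 56420 CPM against 52790 to 69170 CPM), and without replicates 4 and 5 these counts were 12 of 14 and 9 of 16.

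Between genotypes after IL1A+TNF, limma called 10 of the 33 genes higher and 4 lower in Sarm1-/- than in WT retinas (median 0.19), against 14.8% of all genes, 4.04% higher and 10.8% lower. The lactate exporter Slc16a3 differed most, at 72.1, 40.7, 24.3, 77.4, 108 and 66.3 CPM in Sarm1-/- replicates 1 to 6 and 27.7 to 40.9 CPM in the WT retinas of batch 2 (0.79, SE 0.163, adjusted p = 0.00128). Replicate 3 lay below every one of these WT retinas and the other 5 above all or all but the highest. Pgk1 (0.50), Pfkfb3 (0.43), Pfkp (0.37), Ldha (0.37), Pfkl (0.35), Aldoa (0.34), Pgam1 (0.33), Tpi1 (0.28) and Gpi1 (0.26) were also higher. Ldhb was lower, at 113, 110, 67.1, 34.0, 36.7 and 96.9 CPM against 71.3 to 119 CPM in the WT retinas of batch 2 (−0.49, SE 0.128, adjusted p = 0.00687), and so were Pfkm (−0.45), Pdk2 (−0.33) and Slc2a3 (−0.30). In these 4 genes replicates 4 and 5 had a large weight, and for Pfkm they were 37.0 and 39.8 CPM against 78.9 to 133 CPM in the other 4. The test of whether the response itself differed between genotypes called Slc16a3 (0.70, SE 0.203, adjusted p = 0.0217), Slc2a3 (−0.45, SE 0.131, adjusted p = 0.0231), Pfkm (−0.52, SE 0.154, adjusted p = 0.0239) and Ldhb (−0.50, SE 0.159, adjusted p = 0.0337), against 8.75% of all genes.

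These genotype differences rested on few retinas. Without replicates 4 and 5, none of the 33 genes was called in either comparison, where 0.898% and 0% of all genes were called. The difference in Slc16a3 was then 0.43 (SE 0.167, adjusted p = 0.195), that in Ldhb was −0.04 (SE 0.104, adjusted p = 0.889), and Pfkm (0.03) and Slc2a3 (0.07) changed sign. Without replicate 4 alone the count of the direct comparison was 2, and without replicate 5 alone it was 1. With batch 2 alone, limma called none of the 33 in either comparison, where 0.656% and 0% of all genes were called, and Slc16a3 differed by 0.81 (SE 0.250, adjusted p = 0.140). Without the retinas rich in lens markers, 1 of which is a Sarm1-/- IL1A+TNF retina, the direct comparison called 2 genes and the test of the response 0. Leaving out WT IL1A+TNF replicate 6 of batch 2 gave a count of 9 in the direct comparison. The count of genes whose response differed ranged from 0 without Sarm1-/- IL1A+TNF replicate 4 or 5 to 15 without replicate 3, with 8 without replicate 1 or 2, and it was 0 with mouse as a fixed factor. In the direct comparison 12 of 14 RGC markers and 7 of 11 microglia markers were lower in Sarm1-/- retinas, and without replicates 4 and 5 these counts were 0 and 2. The part of these markers in the genotype differences was not tested.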

How the data were processed

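RNA of 109 retinas from 64 mice was sequenced, and the authors deposited whole-number read counts per gene, not normalized. According to the methods and the submitters' processing notes, reads were aligned to mm10 with STAR 2.7.9a and counted with featureCounts of Subread 2.0.1. The strand setting and annotation release are not given in the sources used here. Gene symbols came from GENCODE M21 and matched 35533 of 37315 genes.

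Total counts per retina were 30014757 to 45779899 in batch 1 and 42875980 to 79064488 in batch 2. At this depth the spread between retinas, not counting error, limits most of the 33 genes, Pdk4 excepted. Groups, batch, sex and mouse came from the labels. Counts were filtered by expression (minimum count 10, minimum total 15, large group size 10, proportion 0.7), a filter chosen here. As in the study's methods, they were scaled by trimmed mean of M values in edgeR 4.0.16 and fitted in limma 3.58.1 with voom weights, sex as a covariate and mouse as a random block, under R 4.3.3. The block was estimated in 2 rounds, also a choice made here. Separate fits covered the day 2 WT retinas of batch 1 (58 retinas, 19548 genes), day 14 (13), day 35 (15), the batch 1 PBS retinas of all days (44, no block), and batch 2 (23). The Sarm1-/- comparisons used all 81 day 2 retinas with batch as a term, and Sarm1-/- retinas occur in batch 2 only. Benjamini-Hochberg adjustment ran over all genes tested, and a gene was called at an adjusted p under 0.05.

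The eyes of 45 mice both entered the series, so mouse pairs retinas by design. The correlation of their deviations from the group means had a median of 0.0827 (−0.265 to 0.339) against −0.00984 for retinas of different mice.

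CPM levels are on the scaled libraries, and a level per kilobase divides by the exonic length of the gene. Markers were summed in CPM. Alternatives were other filters, DESeq2 size factors, library totals, edgeR's quasi-likelihood test, DESeq2 1.42.0, fits without sex, without the block or with mouse as a fixed factor, batch 2 alone, and, outside the PBS fit over days, each retina left out of groups of 5 to 10. Fits without Sarm1-/- IL1A+TNF replicates 4 and 5, and without retinas of over 1000 CPM of lens markers, were added after the data were seen. The day 2 fit of batch 1 and the fit of batch 2 were also run on simulated counts. These were drawn without a link between eyes of a mouse and with few genes changed. That run therefore does not test the block, or the scaling where many genes change. Promoter windows came from RefSeq on GRCm38.p6.

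The 33 genes, the marker lists and the other pathway lists were chosen with earlier results of these data known, so no list is independent evidence. Within each role, full statistics were to be given for the called genes with the largest changes and for those called in 1 batch or genotype and not the other, and in groups of such genes the adjusted p is given as a range.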

Additional observations from a re-analysis of the deposited data

Results flagged for a closer look

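In each group of 4 to 10 retinas, the highest and the lowest level of each of the 33 genes was compared with the rest of its group by Dixon's test. It singled out 29 values in 363 combinations of a gene and a group, over 20 genes. Chance alone gives about 1 such value in 20 combinations, and combinations that share retinas are not independent. The 29 are therefore listed as values, all in CPM, with the range of the other retinas of the group in parentheses.

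IL1A replicate 8, the retina with the lowest rod markers of its group, was low for 7 genes: Pkm at 1241 (1887 to 2410), Gapdh at 1355 (2000 to 2443), Eno1 at 1018 (1531 to 1972), Aldoc at 195.7 (310.3 to 396), Pfkm at 94.99 (123.5 to 146.4), Slc16a1 at 158.2 (199.1 to 238.6) and Slc16a3 at 28.07 (51.31 to 64.71). Sarm1-/- IL1A+TNF replicate 3 was low for Pkm at 1064 (1984 to 2461) and Pfkl at 191.3 (345.8 to 437.2). In WT IL1A+TNF retinas of batch 2, replicate 5 was high for Pgk1 at 398.5 (308 to 336.2), Pkm at 1839 (1484 to 1590) and Bsg at 479.6 (385.1 to 410.2), and replicate 3 was low for Mpc1 at 15.64 (18.54 to 20.24). In batch 1, IL1A+TNF replicate 2 was high for Bpgm at 93.81 (69.61 to 80.26).

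Among TNF retinas, day 14 replicate 2 was high for Aldoa at 2066 (1692 to 1813), Tpi1 at 557.8 (454.8 to 486.4), Bpgm at 71.56 (54.22 to 59.43) and Ldhb at 147.8 (110.9 to 121.5). Day 14 replicate 1 was low for Slc16a3 at 30.48 (36.67 to 39.74). On day 35, replicate 9 was high for Mpc1 at 19.68 (17.13 to 18.41). On day 2, replicate 3 was high for Mpc1 at 19.78 (15.95 to 17.68) and replicate 2 for Pdk4 at 1.987 (0.2599 to 0.8645).

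Among PBS retinas, day 14 replicate 3 was high for Eno1 at 1952 (1629 to 1758) and Ldha at 881.3 (746.4 to 790.9), and replicate 1 for Pfkfb3 at 54.43 (43.23 to 48.03). Day 35 replicate 2 was high for Hk1 at 1154 (908.4 to 992.4). In batch 2, WT replicate 2 was high for Slc2a1 at 340.6 (257.4 to 277), Sarm1-/- replicate 4 was high for Pdk4 at 1.596 (0.9153 to 1.166) and Sarm1-/- replicate 2 was low for Bsg at 490.8 (562.1 to 597.7).

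The effect of TNF differed between retinas with and without IL1A, by the interaction term in limma, for Slc16a3 (−0.639 on the log2 scale), Hk2 (−0.604), Slc16a1 (−0.409), Pfkfb3 (−0.377), Pkm (−0.359), Pfkfb2 (−0.357) and Gpi1 (−0.292). The effect of IL1A+TNF differed between genotypes for Slc16a3 (0.702), Pfkm (−0.522), Ldhb (−0.503) and Slc2a3 (−0.447), and none of these 4 was called without replicates 4 and 5.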

How the results depend on the processing

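With mouse as a fixed factor (a full replicate block), the count of called genes fell from 18 to 2 after IL1A and to 0 for IL1A+TNF against IL1A (from 18), for the departure from additivity (from 7) and for the genotype difference in response (from 4). IL1A+TNF against PBS kept 26 of its 28 calls, and the genotype contrasts between mice could not be fitted this way. IL1A+TNF and IL1A retinas came from different mice, so this fit compared them only through PBS fellow eyes. Dropping the random block changed no call. DESeq2 gave counts of 11 for additivity and 2 for the genotype difference in response, and edgeR gave 1 for the latter. Without a filter, the direct genotype comparison after IL1A+TNF called 9 genes (from 14). It and the difference in response called 0 in batch 2 alone and 0 without Sarm1-/- replicates 4 and 5, and in the direct comparison Slc2a3 (0.067) and Pfkm (0.034) then reversed. Without lens-rich retinas, the counts were 2 and 0, and 4 for additivity. The causes were not tested.

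Leaving out 1 retina at a time gave 26 to 29 genes for IL1A+TNF, 8 to 20 for IL1A, 15 to 19 for IL1A+TNF against IL1A, 4 to 18 for additivity, 16 to 20 for batch 2, 17 to 25 for Sarm1-/-, 1 to 20 for the direct genotype comparison, 0 to 15 for the difference in response, and 0 to 0 for TNF on each day and for genotype in PBS retinas. All other alternatives run kept the counts within 1.5 times. Scaling by library totals shifted the median of all genes by at most 0.0726 (log2).

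Whole retinas do not separate cell types, RNA levels do not show enzyme activity or lactate flux, and reads of near-identical copies limit Pgk1, Pgam1, Gapdh, Eno1, Ldhb and Mpc1. Pdk4 was too low for a firm statement.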

Other observations

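Of 55 genes of sugar metabolism outside the 33, 7 were higher and 4 lower after IL1A alone (median log2 fold change −0.02). That is 20% of the list, near the 21.4% of all genes called. The largest rises were in Txnip (1.87), an inhibitor of glucose uptake, Hk3 (1.24), the hexokinase of myeloid cells, and Pygl (0.60), the liver glycogen phosphorylase. Of 14 pentose phosphate genes, H6pd (0.56), Pgd (0.24) and Pgls (0.17) were higher and none was lower (21.4%, the share of all genes). Of 24 genes of the HIF response, 6 were lower, or 25% called against 21.4% of all genes, and none higher, among them Bnip3 (−0.38) and Vegfa (−0.34). In the WT retinas of batch 2, IL1A+TNF gave 7 higher and 3 lower of 54 (18.5%, against 20.9% of all genes called), with Txnip (2.56) and Hk3 (2.54) again highest, 4 higher of 14 in the pentose phosphate list, and 8 lower of 24 in the HIF list.

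In PBS retinas, 16 of 54 of these other genes of sugar metabolism were lower on day 35 than on day 2 and 5 higher (38.9%), against the 32.8% of all genes called. The lower ones included Hk3 (−1.85), Mlxipl (−1.32), a glucose-sensing transcription factor, Hkdc1 (−0.71), a relative of the hexokinases, Gpd1 (−0.67), Pygl (−0.45) and Gys1 (−0.31), the muscle glycogen synthase. The oxidative pentose phosphate genes H6pd (−0.82) and Pgd (−0.13) were lower as well. The summed markers of monocytes and macrophages were 62.58 to 95.26 CPM on day 35 against 111.9 to 330.7 CPM on day 2, and their part in these values was not tested.

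In Sarm1-/- retinas after IL1A+TNF, 13 of the 24 HIF response genes were higher than in WT retinas and none was lower (median 0.26), against 14.8% of all genes called, among them Adm (1.35), which encodes the vasodilator adrenomedullin, Egln3 (1.09), an oxygen-sensing hydroxylase, and Bnip3 (0.66). Without replicates 4 and 5, limma called none of the 24, against 0.898% of all genes (10 of the 24 had an unadjusted p under 0.05, median 0.12).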
